A study of Mus musculus with 19 samples.

Results

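The subunits of the mitochondrial respiratory chain and ATP synthase were taken from the gene counts of single mouse blastocysts by their symbols: *Nduf* a, b, c, s and v genes for complex I, *Sdha* to *Sdhd* for complex II, *Uqcr* genes for complex III, *Cox4* to *Cox8* genes for complex IV, *Atp5* genes for complex V, and the mtDNA genes *mt-Nd*, *mt-Co*, *mt-Cytb* and *mt-Atp*. Of 101 matching genes, 92 had at least 10 counts in at least 1 embryo and were tested among 17137 genes, 84 of them nuclear-encoded and 8 mtDNA-encoded. Complex I had 44 of these members, complex II 4, complex III 9, complex IV 18 and complex V 17. The complex was assigned by symbol alone, without a check of the protein's place, so *Ndufa4* and *Ndufa4l2* were counted in complex I. The 9 others stayed below that count: the mtDNA genes *mt-Co2*, *mt-Co3*, *mt-Atp6*, *mt-Atp8* and *mt-Nd4l*, the paralogues *Cox4i2* and *Cox8b*, and the pseudogenes *Ndufa11b* and *Ndufb4c*. Symbols with -ps were left out, and 2 members, *Cox6c2* and *Ndufs6b*, are annotated as processed pseudogenes.

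RNA came from 8 *Upf2*-null (*Upf2*-/-) and 11 control (*Upf2*+/+) embryos at E3.25. Zygotes of superovulated females aged 4 to 8 weeks were cultured to 90 to 94 hours after hCG. The null allele lacks exons 2 and 3 of *Upf2*, which encodes a core factor of nonsense-mediated RNA decay (NMD). It was made with a Cre active in the early embryo. Both parents of the embryos were heterozygous for it, the controls were littermates, and genotypes were read from the cDNA. The authors state that UPF2 inherited from the oocyte could have affected the phenotype and that they could not test it. Each library holds a whole embryo, so fewer cells of a type and less RNA per cell cannot be told apart. Counts over the whole *Upf2* gene were 90.9 ± 21.3 CPM (counts relative to the scaled library total, SD, n = 8) in *Upf2*-null and 57.8 ± 16.5 CPM (SD, n = 11) in control embryos; they include exons outside the deletion and do not test the genotype. Library totals ran from 4056072 to 5993745 counts after the authors had removed PCR duplicates. Trophectoderm markers were present in every library, with summed levels of 1236 to 1703 CPM in *Upf2*-null and 767 to 1760 CPM in control embryos, and the epiblast sum was 276 to 420 against 312 to 731 CPM and that of primitive endoderm 191 to 259 against 95.7 to 261 CPM. Of 10 cumulus and granulosa cell genes, 1 passed the count filter and *Cyp19a1* and *Fshr* were at 0 in all embryos. The part of cell composition in the values below was not tested.

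Complexes I to IV carry electrons from NADH and succinate to oxygen and pump protons, except for complex II, which pumps none, and complex V uses the proton gradient to make ATP. Both genomes of the cell contribute: nuclear genes encode most subunits, and mtDNA encodes the core hydrophobic ones of every complex other than complex II. In the preimplantation embryo, mitochondria are inherited from the oocyte and respiration increases towards the blastocyst stage.

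The mtDNA genes showed a gap in these counts. The 6 neighbours from *mt-Co2* to *mt-Nd4l* (chrM:7013-10173, GRCm38) together had 146 counts over all 19 embryos, whereas the 7 other mtDNA protein genes together had 168313. Per kb of mRNA, the total was 10708 to 32448 counts for those 7 genes and 0 to 305 for the 6 neighbours. Almost all of *mt-Co2*, *mt-Atp6*, *mt-Co3*, *mt-Nd3* and *mt-Nd4l*, from 98.99% to 99.9% of each, matched an annotated nuclear pseudogene at an identity of at least 99%. These copies lie in one stretch of chromosome 1 (chr1:24611535-24615565, GRCm38), and the 6 annotated genes there had 8 to 94 counts each in total, so few reads were counted at the copies as well. *mt-Nd1*, *mt-Nd2*, *mt-Nd5*, *mt-Nd6* and *mt-Cytb* had no annotated copy of that identity. *mt-Nd4*, of which 63.6% lies in such a copy, had the lowest total per kb of the 7 genes, 10708. Of *mt-Co1*, 31.3% lies in a copy of at least 99% identity and all of it in one of at least 95%, so the levels of *mt-Nd4* and *mt-Co1* carry the same limit in part. For *mt-Atp8* only 21.1% lies in an annotated copy, and the genome between the annotated pseudogenes was not analysed here. The sequences below show the difference between a gene of the gap and its neighbours outside it, with the bases that differ in capitals.
mt-Co2 (chrM:7339-7368, + strand): atatactgactatgaagacctatgctttga
Gm28661, its copy on chromosome 1: atatactgactatgaagacctatgctttga
mt-Nd3 (chrM:9459-9488, + strand): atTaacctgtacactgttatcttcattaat
Gm28438, its copy on chromosome 1: atCaacctgtacactgttatcttcattaat
mt-Cytb (chrM:14146-14175, + strand): tgacaaacatacGaaaaacacaCccattat
Gm11410, its closest copy, on chromosome 4: tgacaaacatacAaaaaacacaTccattat

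*Gm28661* matched 681 bases of *mt-Co2* without a mismatch and *Gm28438* matched 345 bases of *mt-Nd3* with 1, whereas *Gm11410* differed from *mt-Cytb* at 81 of 1142 aligned bases. The near-zero counts of the 6 neighbours are not read as RNA levels here, and the values of *mt-Nd3* below carry this limit. Whether reads matching more than 1 place were left out of the counts is not given in the sources used here, and their part in the gap was not tested.

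**Figure D1:**
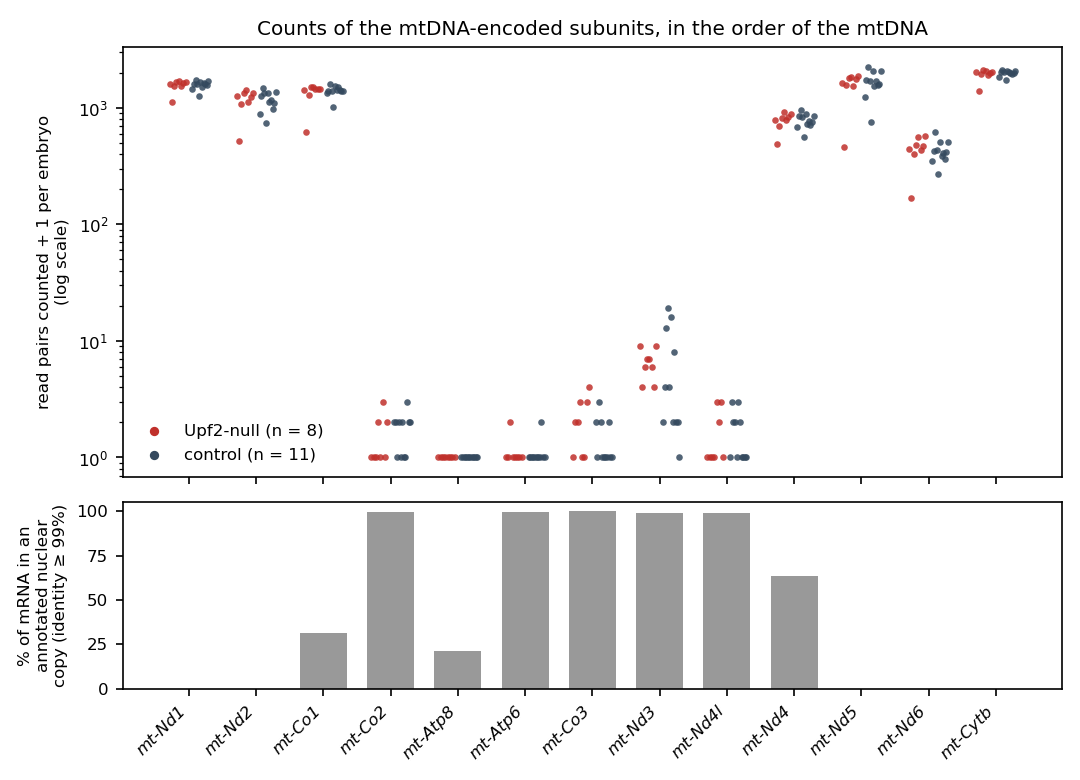
Upper plot: counts of each mtDNA-encoded subunit in each embryo plus 1 (log scale), genes in mtDNA order, *Upf2*-null embryos in red and controls in dark blue. Lower plot: percent of each mRNA that matches an annotated nuclear copy at an identity of at least 99%. The 6 neighbours from *mt-Co2* to *mt-Nd4l* have 0 to 18 counts an embryo, and *Upf2*-null embryo 2 is the lowest embryo for each of the 7 other genes.

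Among the 7 well-counted mtDNA mRNAs, the genotypes overlapped throughout. *mt-Cytb*, the cytochrome *b* of complex III, had 245 to 485 CPM (median 399) in *Upf2*-null and 341 to 518 CPM (median 386) in control embryos. *mt-Nd1*, a membrane subunit of complex I, had 198 to 391.6 (median 327) against 263 to 412 CPM (median 313). *mt-Co1*, the catalytic core of complex IV, had 110 to 346 (median 294) against 225 to 361 CPM (median 279). The lowest value of each belonged to *Upf2*-null embryo 2, and the other 7 *Upf2*-null embryos lay within the control range or at its lower edge. The widest spread was that of *mt-Nd5*, another complex I subunit, at 81.7 to 440 (median 344) against 165 to 483 CPM (median 358). The remaining complex I genes *mt-Nd2*, *mt-Nd4* and *mt-Nd6* had log2 fold changes (*Upf2*-null over control) of -0.01, -0.02 and 0.05. None of the 8 tested mtDNA genes was called, with adjusted p-values of 0.94 or more (edgeR's quasi-likelihood test, Benjamini-Hochberg adjustment over all genes), and 7 of the 8 log2 fold changes were below 0, with a median of -0.04. That direction rested on 1 library: without *Upf2*-null embryo 2, all 8 were above 0 and the median was 0.05. In limma voom with sample quality weights 6 of 8 were above 0 (median 0.04), and without control embryo 6 it was 4 of 8. The 8 genes include *mt-Nd3*, a gene of the gap. It passed the count filter through control embryos alone, with at most 8 counts in *Upf2*-null and 18 in control embryos. The direction of *mt-Nd3* is therefore not read as a result.

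The 8 mtDNA genes summed to 843 to 2327 CPM (1783 ± 452, SD, n = 8) in *Upf2*-null and 1396 to 2383 CPM (1841 ± 341, SD, n = 11) in control embryos. Set against the nuclear-encoded subunits of the same embryo, the mtDNA sum was 0.132 ± 0.026 of the nuclear sum in *Upf2*-null and 0.142 ± 0.021 in control embryos. *Upf2*-null embryo 2 had the lowest ratio, 0.069, and control embryo 5 the next lowest, 0.098. The other 17 embryos lay between 0.122 and 0.168, and the genotypes overlapped.

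No nuclear-encoded subunit was called either, in any complex, by edgeR. Over all genes, 0.175% were called higher in *Upf2*-null embryos and 0.0175% lower at an adjusted p under 0.1. At an unadjusted p under 0.05, 1 member was higher and none was lower, whereas 5.15% of all genes were higher and 7.38% lower. For none of the 92 did the genotypes separate without overlap, which held for 0.0934% of all genes. The 95% intervals show how closely the genotypes were compared in counts without PCR duplicates. Whether the removal of duplicates narrowed differences in abundant mRNAs was not tested. Of the 85 members with a mean of at least 20 CPM, 79 had an interval of the log2 fold change between -0.5 and 0.5, and all 85 between -1 and 1. The 7 members below that level, which are *mt-Nd3*, both pseudogenes and the sparse paralogues *Ndufa4l2*, *Cox6a2*, *Cox7b2* and *Cox8c*, had wide intervals, from -5.28 to 4.14, and cannot be judged at this depth.

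**Figure D2:**
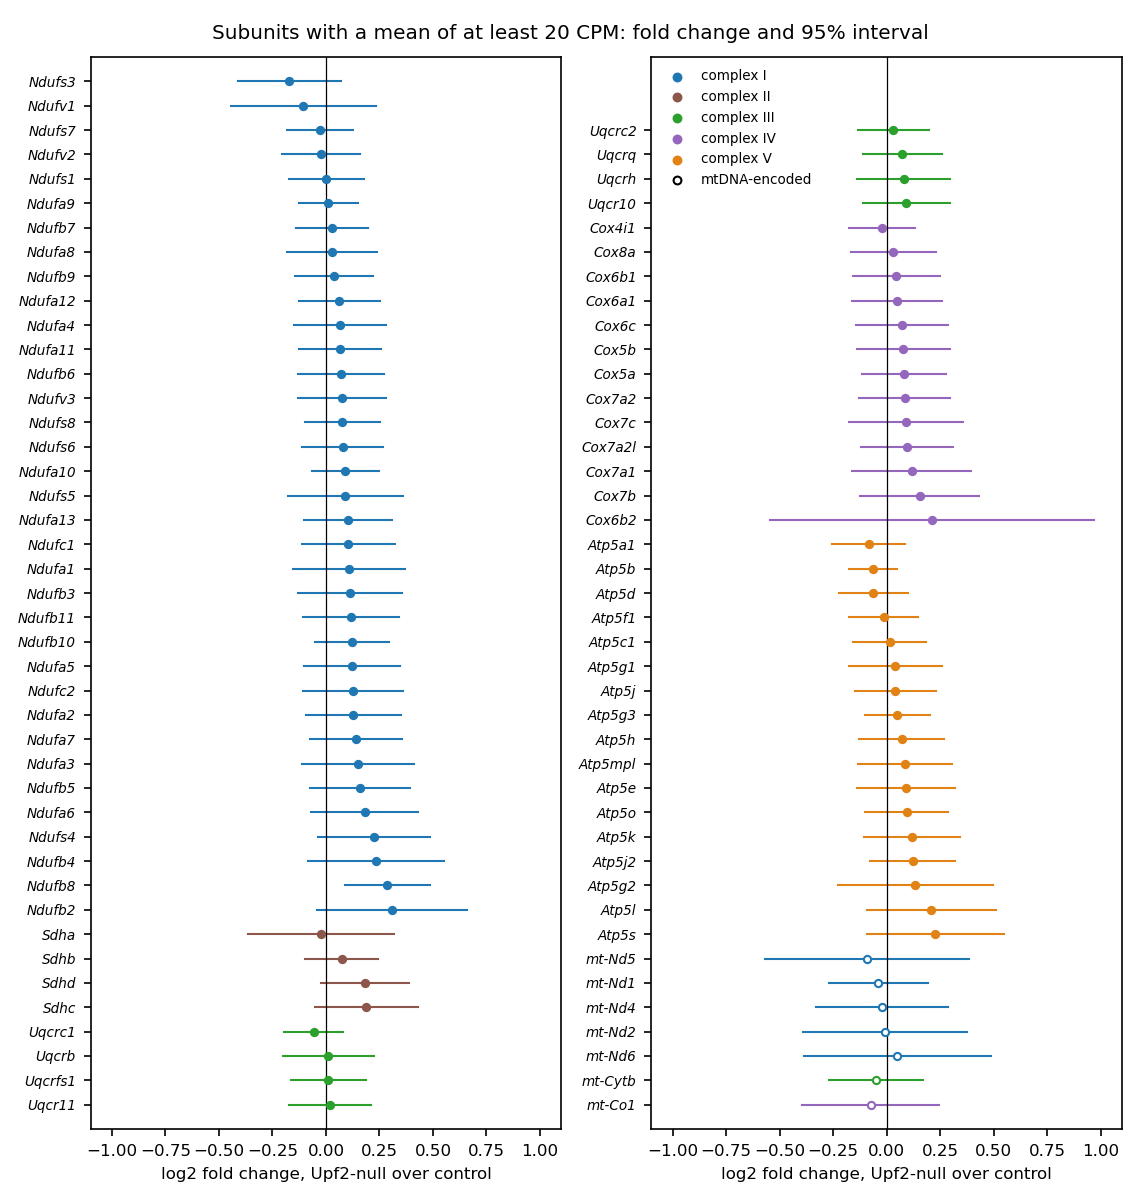
Log2 fold change of *Upf2*-null over control embryos (points) with its 95% interval (lines) for 84 of the 85 members with a mean of at least 20 CPM, coloured by complex, with open points for mtDNA genes. *Ndufb8*, at a log2 fold change of 0.29, is the nuclear-encoded member with the lowest p, and the other intervals shown cross 0.

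Small positive values were common among the nuclear-encoded members. Of 84, 71 had a log2 fold change above 0, with a median of 0.08, whereas 47.7% of all genes tested were above 0, with a median of -0.02. By complex, the nuclear medians were 0.09 for complex I (34 of 38 above 0), 0.13 for complex II (3 of 4), 0.03 for complex III (7 of 8), 0.08 for complex IV (14 of 17) and 0.07 for complex V (13 of 17). Counted among these are *Cox6a2* and *Cox8c*, which passed the count filter through control embryos alone. *Ndufa4l2*, also counted, passed it through *Upf2*-null embryo 2 alone. Of all 92 members, 72 differed by less than 10% between genotypes. Members vary together from embryo to embryo, as described below, so these counts are not independent of each other, and they are given as a description.

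*Ndufb8*, an accessory subunit of complex I on chromosome 19, was the member with an unadjusted p under 0.05. Its CPM in *Upf2*-null embryos 1 to 8 were 234, 233, 234, 295, 243, 263, 292 and 255, and in control embryos 1 to 11 they were 178, 256, 179, 217, 296, 201, 179, 209, 190, 184 and 220. All 8 *Upf2*-null embryos were above the control median of 201 CPM, but control embryo 2 lay within the *Upf2*-null range and control embryo 5 just above it. The means were 256 ± 25.4 (SD, n = 8) and 210 ± 37.0 CPM (SD, n = 11), 0.29 apart on the log2 scale (SE 0.10), with an adjusted p of 0.26 in edgeR. It passed the adjusted threshold in limma voom, at an adjusted p of 0.0219. In edgeR it passed without control embryo 5, at 0.096, and without control embryos 2, 4 and 5, at 0.0226. Earlier results of these data had set those 3 embryos apart. Embryos 2 and 5 have the 2 highest control values of *Ndufb8*, so leaving them out removes the overlap and is no independent check. Over all alternatives its adjusted p ranged from 0.0219 to 1. Its exons share 134 bases with those of *Gm20538* on the same strand, which had 0 counts. *Ndufb2*, another accessory subunit, named after its value was seen, had a higher fold change but a wider spread, at 26.3 to 49.5 CPM (median 36.8) against 22.5 to 36.7 CPM (median 30.5) and 0.31 on the log2 scale (SE 0.17).

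**Figure D3:**
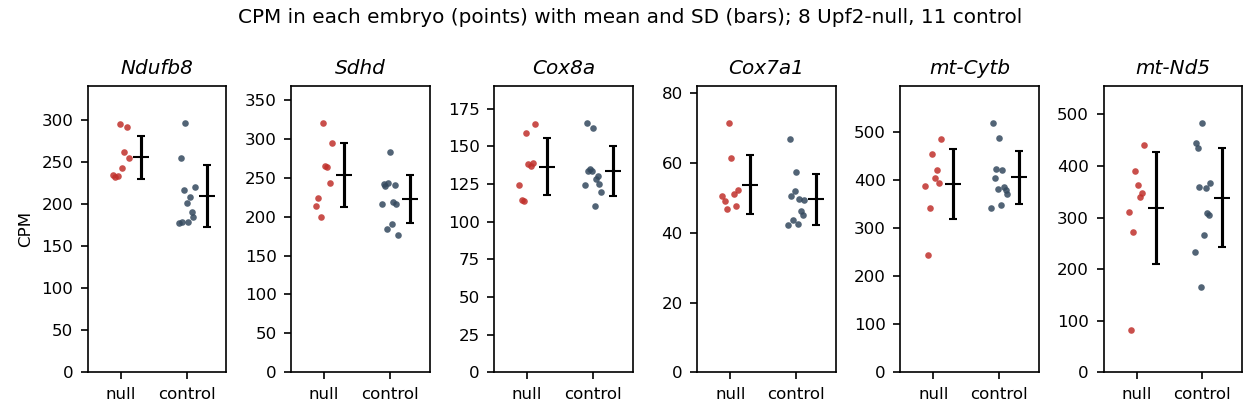
CPM of 6 members in each *Upf2*-null (red) and control (blue) embryo, with mean and SD as bars; each axis starts at 0. For *Ndufb8*, 1 control embryo lies within the *Upf2*-null range and 1 just above it, and for *mt-Cytb* and *mt-Nd5* 1 *Upf2*-null embryo lies far below the rest.

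Within complex I, the member with the lowest p among those below 0 was *Ndufs3*, a core subunit of the peripheral arm, at 80.1 to 152 CPM (median 127) in *Upf2*-null and 112 to 159 CPM (median 134) in control embryos. Its log2 fold change was -0.17 (SE 0.12, adjusted p = 0.64 in edgeR), the groups overlapped, and a copy of at least 95% identity is annotated. Among the core subunits of that arm, *Ndufv1*, *Ndufv2*, *Ndufs1*, *Ndufs7* and *Ndufs8* had log2 fold changes from -0.11 to 0.08. In complex II, *Sdhd*, a membrane anchor, had 199 to 320 CPM (median 254) against 177 to 283 CPM (median 218), with 6 of 8 *Upf2*-null embryos above the control median a log2 fold change of 0.18 (SE 0.10) and an adjusted p of 0.495 in edgeR. *Sdha*, the flavoprotein that oxidizes succinate, had 131 to 352 (median 276) against 185 to 374 CPM (median 267), a log2 fold change of -0.02. The complex II sum was 911 ± 44.5 CPM (SD, n = 8) in *Upf2*-null and 854 ± 86.9 CPM (SD, n = 11) in control embryos, with 7 of 8 *Upf2*-null embryos above the control median and overlapping ranges.

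In complex III the log2 fold changes of the 9 members ran from -0.06 for *Uqcrc1*, a core protein, to 0.09 for *Uqcr10*, a small accessory subunit. *Cyc1*, the cytochrome *c1* of this complex, falls outside the symbol rule and is in none of the complex III values. It had 265 CPM on average in *Upf2*-null and 299 CPM in control embryos, a log2 fold change of -0.17 (SE 0.13). In complex IV, *Cox7b*, an accessory subunit, had the lowest p among the members above 0, at 90.9 to 144 CPM (median 120) against 80.0 to 152 CPM (median 101) and a log2 fold change of 0.16 (SE 0.13). The lowest p below 0 was that of *Cox8c*, with at most 4 counts in *Upf2*-null and 14 in control embryos. It passed the count filter through control embryos alone, so its direction is not read as a result. In complex V, the most abundant subunit mRNAs, *Atp5a1* and *Atp5b* for the catalytic head, had log2 fold changes of -0.08 and -0.06, with 2 of 8 *Upf2*-null embryos above the control median for each. *Atp5b* had 485 to 607 CPM (median 513) against 510 to 601 CPM (median 558). *Atp5s*, which is a factor associated with the enzyme and no structural subunit, had 59.1 to 108 (median 70.9) against 51.5 to 109 CPM (median 60.0). The genotypes overlapped for all of these genes.

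The sums over whole complexes overlapped as well. In *Upf2*-null and control embryos the nuclear-encoded members summed to 13419 ± 1198 CPM (SD, n = 8) and 12959 ± 1135 CPM (SD, n = 11), with ranges of 11890 to 15266 and 11358 to 14988 CPM. With the mtDNA genes included, the ratio of group means was 1.04 for complex I, 1.07 for complex II, 1.00 for complex III, 1.03 for complex IV and 1.01 for complex V. Nuclear complex IV mRNA stood at 0.278 ± 0.015 of nuclear complex I mRNA in *Upf2*-null and 0.280 ± 0.015 in control embryos.

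The embryos nevertheless differed from each other in a shared pattern that followed the library total. Over the 19 embryos, the log2 of the nuclear sum in CPM was lower where the log2 of the library total was higher, with Pearson's r = -0.93 and Spearman's rho = -0.93, and r = -0.95 without the 2 embryos farthest from the median total. It was so within each genotype, with r = -0.99 over 8 *Upf2*-null and r = -0.91 over 11 control embryos. The library total also enters the CPM as its denominator, and these values are a description without a test. The raw counts of the nuclear members summed to 58246 to 68753 per embryo, and their r with the library total was 0.54. For the raw sums of nuclear complex IV and of mtDNA, r was -0.24 and -0.36. The 4 embryos with the fewest counts, *Upf2*-null 8 and 4 and control 6 and 2, had nuclear sums of 14122 to 15266 CPM, whereas *Upf2*-null 3 and control 7, with the most counts, had 11890 and 11358. For the mtDNA sum r was -0.72, for complexes III and IV (nuclear members) -0.96 and -0.95, and for complex II -0.38.

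**Figure D4:**
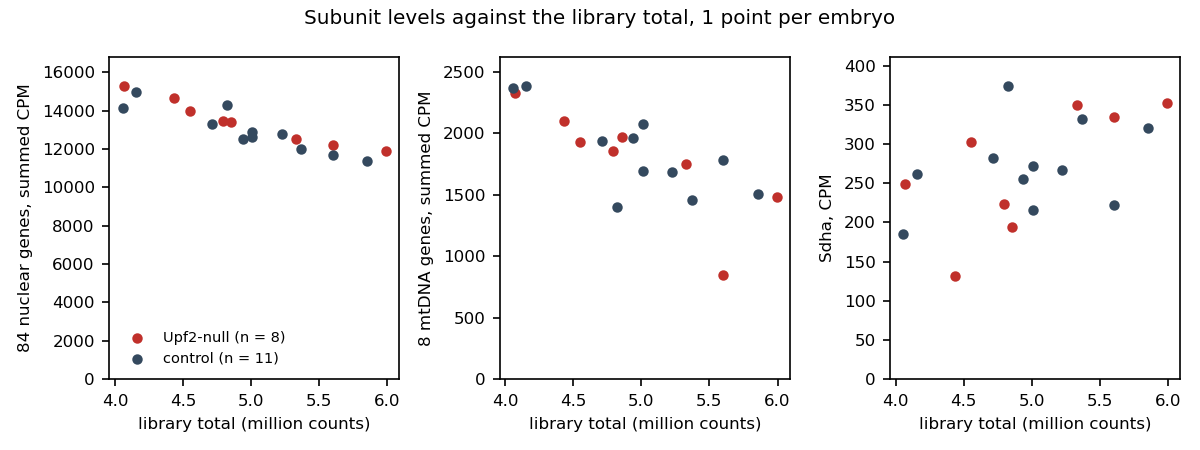
Summed CPM of the 84 nuclear and the 8 mtDNA members, and CPM of *Sdha*, against the library total, 1 point per embryo, *Upf2*-null in red and control in blue; the vertical axes start at 0. The nuclear sum is lower at higher totals in both genotypes, between 15266 and 11358 CPM, and that of *Sdha* is not.

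The pattern was found in most nuclear members, short and long. Of 73 nuclear members with a mean of at least 50 CPM, 61 had r below -0.5 with the library total, with a median r of -0.85, whereas 19.6% of all genes at that level did, with a median of -0.01. Members whose longest transcript is under 1 kb had a median r of -0.89 (33 of 34 below -0.5), and all genes of that length and level had -0.74. Members of 1 kb or more had a median r of -0.82 (28 of 39 below -0.5), whereas all genes of that length and level had 0.03, with 16.4% below -0.5. Among the members with values above 0, *Sdha*, whose longest transcript has 2900 bases, had r = 0.51, *Ndufv1* 0.41, *Ndufa8*, with 861 bases, 0.14 and *Atp5a1* 0.13. The most negative were *Cox8a* at -0.96, *Ndufa11* at -0.95 and *Cox6b1* at -0.95, with longest transcripts of 550, 918 and 618 bases, but *Atp5g1*, with 4715 bases, was at -0.93 and *Atp5f1*, with 2527, at -0.92. The highest library total was 1.48 times the lowest. In the 18 embryos other than *Upf2*-null 2, *mt-Cytb* had 1720 to 2089 raw counts and *mt-Nd1* 1261 to 1716, whereas the 5 other abundant mtDNA genes spread more widely, *mt-Nd5* from 748 to 2251. After subtraction of the genotype means, the median correlation between pairs of nuclear members was 0.78, and it was 0.95 between pairs of mtDNA members, 0.62 between the genomes and 0.09 within complex II. Between pairs of all genes with a mean of at least 20 CPM it was -0.01. With the log2 library total as a covariate in edgeR, still no member was called, 8 had an unadjusted p under 0.05 (7 higher, 1 lower), and the nuclear median was 0.07. The share of all genes at that p was not taken in this fit, so these 8 are not read as a result about the members. What the pattern follows from was not tested.

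Levels between genes were compared as CPM per kb of merged exons, averaged over all embryos. The highest were mtDNA genes in complexes I and III, *mt-Nd1* at 333 and *mt-Cytb* at 349 CPM per kb. PCR duplicates had been removed, and the highest count of any gene in any embryo was 4884. Whether the removal limited the counts of abundant mRNAs was not tested. The ratio of mtDNA to nuclear sums shares this limit. The highest nuclear-encoded members of complexes I to V were *Ndufa1* at 207, *Sdhd* at 191, *Uqcr10* at 281, *Cox6a1* at 240 and *Atp5a1* at 179 CPM per kb. The lowest in complexes II, III and V were *Sdhc* at 45.2, *Uqcrq* at 79.6 and *Atp5l* at 7.00 CPM per kb. *Atp5l* has 9 annotated copies of at least 95% identity over most of its transcript and a long annotated transcript, so its level is uncertain. In all, 9 nuclear-encoded members have such a copy, and the exons of 28 members overlap those of another protein-coding gene. On the scale of the longest transcript, *Atp5b* rather than *Atp5a1* was the highest of complex V.

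**Figure D5:**
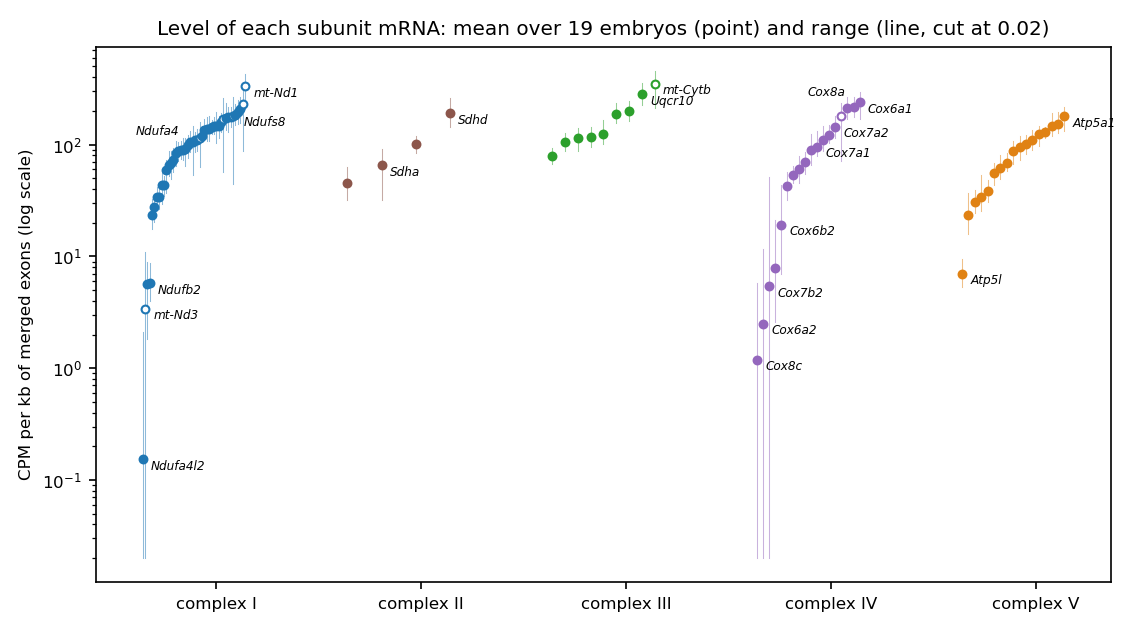
Level of each member in CPM per kb of merged exons (log scale), by complex, as the mean over 19 embryos (point) with the range (line, cut at 0.02); open points are mtDNA genes. *mt-Cytb* is highest at 349, and the tissue-restricted paralogues of complex IV lie at 19.1 or lower, except for *Cox7a1* at 96.1.

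Some complex IV subunits exist as widely expressed and tissue-restricted copies, and the counts in both genotypes came mostly from the former. *Cox7a1*, known as the heart and skeletal muscle form, was the exception, with 96.1 CPM per kb beside 145 for its widely expressed copy *Cox7a2*. In CPM it had 46.9 to 71.4 (median 50.7) in *Upf2*-null and 42.2 to 66.9 (median 49.4) in control embryos, and it was present in every embryo. *Cox6b2*, known from testis, had 19.1 CPM per kb beside 211 for *Cox6b1*, with 7.84 to 48.5 (median 17.8) against 7.72 to 43.4 CPM (median 15.8). *Cox6a2*, the muscle copy of *Cox6a1*, was counted in 5 of 8 *Upf2*-null (up to 1.90 CPM) and 7 of 11 control embryos (up to 7.96 CPM). *Cox8c* had 1.18 beside 217 for *Cox8a*, *Cox8b* had 0 counts in all embryos, and *Cox4i2* had at most 6 counts, beside 123 CPM per kb for *Cox4i1*. *Cox7b2*, a testis copy of *Cox7b*, was counted in 7 embryos only, with 27.7 CPM in *Upf2*-null embryo 7. *Ndufa4l2*, a paralogue of *Ndufa4*, was counted in 3 embryos. *Cox7a2l*, a factor for assembly of respiratory supercomplexes, had 109 CPM per kb. In CPM it had 145 to 192 (median 173) in *Upf2*-null and 131 to 215 (median 144) in control embryos, with all 8 *Upf2*-null embryos above the control median, overlapping ranges and a log2 fold change of 0.10 (SE 0.10, adjusted p = 0.84 in edgeR).

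The membrane ring subunit c of ATP synthase is made from the 3 genes *Atp5g1*, *Atp5g2* and *Atp5g3*, whose mature proteins are identical. They had 30.9, 23.7 and 102 CPM per kb, and their log2 fold changes were 0.04, 0.13 and 0.05. *Atp5g3* overlapped between genotypes, at 204 to 257 (median 222) in *Upf2*-null and 180 to 263 CPM (median 222) in control embryos.

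The promoters of the nuclear-encoded members were searched for motifs, which the choice by symbol did not use. NRF1 and the ETS factor GABP are transcription factors known for activating respiratory chain genes, and YY1 is another factor with sites at many housekeeping promoters. RefSeq promoters on GRCm38.p6, 250 bases before to 50 after the start, were found for 65 of 82 protein-coding nuclear members. The NRF1 core GCATGCGC, on either strand, was in 15.4% of these genes (10 of 65) and in 3.05% of the 27025 genes of the table. The ETS core CCGGAAG was in 24.6% (16 of 65) against 9.93%, and the YY1 core ATGGCGG in 15.4% (10 of 65) against 4.69%. In the 250 bases before the start alone, the YY1 core was in 6.15% (4 of 65) against 2.58%. Most members held none of a given core, and no test of these shares was made. The 27025 genes are not limited to the 17137 tested in these embryos, so members were not compared with expressed genes alone. The NRF1 core overlaps its own reverse complement wherever it follows the letters GC, and a gene was counted once. A match is a description and no bound site. Promoter windows of members from 4 complexes are shown, read along the gene, with the core in capitals.
Sdhb, NRF1 core (chr4:140961206-140961235, + strand): aagcccagtggGCATGCGCcctacgggccg
Sdhb, ETS core (chr4:140961266-140961295, + strand): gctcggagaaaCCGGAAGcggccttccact
Cox6a1, NRF1 core (chr5:115349100-115349129, - strand): aggaacggggcGCATGCGCgctctcgctcc
Uqcr11, NRF1 core (chr10:80406807-80406836, - strand): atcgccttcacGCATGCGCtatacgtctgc
Uqcr11, ETS core (chr10:80406869-80406898, - strand): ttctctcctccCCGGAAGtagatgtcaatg
Ndufs7, YY1 core (chr10:80249465-80249494, + strand): ccgaggccaagATGGCGGcgctggcgggtg

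*Sdhb*, *Uqcr11*, *Cox6a1*, *Atp5k* and *Atp5l* held both the NRF1 and the ETS core. The log2 fold changes of *Sdhb*, *Cox6a1*, *Uqcr11* and *Ndufs7* were 0.07, 0.05, 0.02 and -0.03. At least 1 transcript of the NMD biotype was annotated for 24.4% of 82 protein-coding nuclear members and for 26.6% of all protein-coding genes tested. The median log2 fold change was 0.08 both for the 20 members with such a transcript and for the 62 without.

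Genes that serve the chain were taken from lists, and none of them was called by edgeR. At an unadjusted p under 0.05, against 5.15% of all genes higher and 7.38% lower, 0 of 28 genes of mtDNA expression were higher and 1 was lower, *Mterf4*, a factor of mitochondrial ribosome assembly, at 83.6 ± 13.8 CPM (SD, n = 8) and 104 ± 10.5 CPM (SD, n = 11). Of 14 regulators of respiratory genes, 1 was higher (*Creb1*, 0.46 on the log2 scale) and 1 lower (*Myc*, -0.88). Among 14 subunits and partners outside the symbol rule, *Ndufab1*, the acyl carrier protein bound to complex I, was higher at 207 ± 39.8 against 162 ± 28.8 CPM, 0.35 on the log2 scale, with an adjusted p of 0.26 in edgeR. *Etfdh*, which passes electrons from fat oxidation to coenzyme Q, was at 0.30, and *Gpd2*, the mitochondrial glycerol phosphate dehydrogenase, at -0.30. *Coq6* was lower among 13 genes of coenzyme Q synthesis (-0.23), and *Idh2* among 21 of the TCA cycle and pyruvate dehydrogenase (-0.28). Of 19 glycolysis genes, *Pgk1* was higher (0.35) and *Ldha* lower (-0.76).

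The mitochondrial ribosome, which translates the mtDNA mRNAs, had mostly small positive values, with 55 of 73 tested genes above 0 and a median of 0.05. At an unadjusted p under 0.05, 3 were higher and none lower. *Mrpl49* had the lowest p of all genes on these lists, at 308 ± 22.9 in *Upf2*-null and 250 ± 32.5 CPM in control embryos (SD), 0.30 higher on the log2 scale (SE 0.08), with an adjusted p of 0.14 in edgeR. It passed the threshold in DESeq2, in limma voom, in the scaled table, with the library total as a covariate, without control embryo 2 and without control embryos 2, 4 and 5. *Mrpl47*, which overlaps the exons of *Ndufb5* by 616 bases on the opposite strand, was at 0.22 and *Mrps11* at 0.18.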

How the data were processed

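Genes, lists and tests were chosen with earlier results of these data known. The authors made full-length cDNA (SMARTer Ultra Low Input) and Nextera XT libraries that were mapped to GRCm38 (STAR 2.5.2a). PCR duplicates were dropped (SAMtools), and featureCounts gave the counts per Ensembl gene that the authors deposited; strand and multi-mapping settings are not given in the sources used here. The deposited scaled table holds signal values that the authors normalized with 1 factor per embryo, and 100% of them were within 0.01 of whole reads.

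Symbols, lengths and biotypes came from GENCODE M21. The 17137 of 41388 genes that reached 10 counts in some embryo were fitted with edgeR 4.0.16 (TMM, robust quasi-likelihood, no covariate) and called at a Benjamini-Hochberg adjusted p under 0.1. On simulated counts of 16054 genes this fit recovered 53% of 2-fold and 75% of 4-fold changes, with 19.0% of calls false. CPM are TMM-normalized. Intervals are 95% intervals of the log2 fold change from its standard error. Copies were sought with blastn 2.17.0 among GENCODE transcripts. p-values measure the spread between embryos. No embryo pair agreed within sampling noise.

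Named are members at an unadjusted p under 0.05, the lowest p on each side of 0 and the highest and lowest level per complex, all mtDNA genes, fixed paralogues, non-structural members, and list genes at an unadjusted p under 0.05; others were chosen after their values were seen, and 1 member is counted but not reported by name here. Alternatives were DESeq2 1.42.0, limma 3.58.1, other normalizations and filters, the replicate number as a block, the scaled table, control embryos 2, 4 and 5 or each embryo left out, and, added after seeing the data, the reads recovered from the scaled table (33 genes called) and the library total as a covariate. R 4.3.3, Python 3.11.15, pandas 2.3.3, numpy 2.4.6 and scipy 1.17.1 were used.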

Additional observations from a re-analysis of the deposited data

Results flagged for a closer look

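In 51 sums, ratios and named members, the *Upf2*-null group of 8 embryos was searched for an embryo far from the rest. The measure was the gap to the next embryo as a share of the range of the group. For normally distributed values, chance alone marks about 5% of such groups, and 5 were marked. The ratio of summed mtDNA to summed nuclear CPM was marked for *Upf2*-null embryo 2, at 0.0692 against 0.1247 for the next embryo, a gap of 0.666 of the range. *mt-Nd5* was marked for the same embryo, at 81.7 CPM against 271, a gap of 0.528 of the range. This embryo had the lowest CPM of all 19 in each of the 7 well-counted mtDNA genes and of 20 of the 92 members, while its library total of 5601453 counts was among the 3 highest. Control embryo 7, with a total of 5854659 counts, was the lowest in more members, 32, but in none of those 7 mtDNA genes. The sparse paralogues *Cox7b2* (*Upf2*-null embryo 7, 27.7 CPM, a gap of 0.782), *Cox8c* (*Upf2*-null embryo 3, 0.697 CPM, a gap of 0.683) and *Ndufa4l2* (*Upf2*-null embryo 2, 2.30 CPM, with the other 7 at 0, a gap of 1) were marked as well. These were counted in 2, 2 and 1 of the 8 *Upf2*-null embryos, so the rate of 5% does not apply to them. *Ndufa4l2* passed the count filter only through the embryo marked here, so its mark is not read as a result.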

How the results depend on the processing

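The nuclear median stayed above 0 in all 11 alternative fits (0.0574 to 0.122) and the 19 fits that leave out 1 embryo (0.04 to 0.113, lowest without *Upf2*-null embryo 8 and 0.0469 without embryo 4), while the mtDNA median changed sign (-0.0739 to 0.0433, and -0.1 to 0.0493). A member was called, *Ndufb8* each time, in limma voom (1) and without control embryos 2, 4 and 5 (1), of which 2 and 5 have its highest control values. Leaving out 1 embryo gave 0 to 1. Members at an unadjusted p under 0.05 numbered 10 in limma voom, 8 with the library total as a covariate, 4 without control embryos 2, 4 and 5, 2 in DESeq2, with upper-quartile factors, at 1 count or more, in the scaled table and in the recovered reads, and 1 to 5 when 1 embryo was left out. The share of all genes at that p was not taken in these fits, so these counts are not read as a result about the members. A single gene of the other lists, *Mrpl49*, was called (1) in DESeq2, limma voom, the scaled table, without control embryos 2, 4 and 5 and with the covariate, and 0 to 1 were called when 1 embryo was left out. The *Upf2* log2 fold change of 0.66 passed the threshold at 0.6558 in DESeq2, 0.8319 in limma voom and 0.8505 without control embryos 2, 4 and 5, and ran from 0.5815 to 0.7288 when 1 embryo was left out. Genes called over the whole table numbered 33 in edgeR, 176 in DESeq2, 114 in limma voom, 17 with upper-quartile factors, 51 with the covariate, 56 without control embryos 2, 4 and 5 and 14 to 43 when 1 embryo was left out. At an adjusted p under 0.05 in edgeR no member was called. Per kb of the longest transcript *Cox6a1* had 272 and *Atp5a1* 210 CPM per kb. In the 250 bases before the start, 6.15% of members and 2.58% of all genes with a listed promoter held the YY1 core, against 15.4% and 4.69% in all 300 bases. The YY1 matches of *Atp5b*, *Ndufa9*, *Ndufb5*, *Ndufs4*, *Ndufs6* and *Ndufs7* begin 15 to 38 bases after the start, outside the shorter window. The replicate block, with which 0 genes were called and the nuclear median was 0.0574, rests on numbers that do not pair the embryos: same-numbered embryos correlated at -0.33 to 0.191 and 0 of 8 correlated best with their own number. With ratios of group means taken without each embryo, nuclear sums ran from 1.02 to 1.05 and mtDNA sums from 0.926 to 1.04. Spike-in rows were not in the counts used here, so that scaling was not run.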
